A study of Mus musculus with 12 samples.

Results

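The comparison covers the steady-state thymocytes of DPASE knockout (KO) and wild-type (WT) mice, which gave 4 of the 12 libraries of the series: 2 labelled WT_Steadystate and 2 labelled DPASEKO_Steadystate, chosen by their titles. The series asks how RAG gene expression in double-positive (DP) thymocytes shapes the repertoire of T cell receptor alpha (Tcra) genes; the labels name DPASE and say no more of it. Both genotypes were homozygous (WT or DPASEKO) and both carried TcrdCreER, a tamoxifen-dependent Cre driven from the Tcrd locus, together with a ZsGreen reporter at Rosa26. The background was C57BL/6J with strain 129 sequence at the Tcra-Tcrd loci. The genotype label gives the reporter as Rosa26ZsG/+ and the strain label as Rosa26ZsG/ZsG. Mice were 4 to 6 weeks old, and no tamoxifen is listed for the steady-state samples. The other 8 libraries come from ZsGreen-positive cells sorted 24 h or 48 h after 1 mg of tamoxifen. All samples were CD3e-negative DP thymocytes, which have not yet passed selection on their receptor. The series speaks of groups of 2 mice and does not say whether each library was 1 mouse. So p-values here reflect how much libraries of a group scatter, partly or fully pooled over segments or pairs, and that scatter may be technical.

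Tcra is assembled by joining 1 of many Trav segments to 1 of many Traj segments with the RAG recombinase. The Traj array lies between the Trav array and the constant segment Trac. First joins use Trav segments close to the Traj array (proximal) and Traj segments at its 5′ end, near the TEA and Traj49 promoters. As long as a DP cell lives and keeps RAG, later joins on the same allele replace earlier ones and move outward, to more distal Trav segments and more 3′ Traj segments. Each table gives the fraction of the Tcra repertoire, read from RNA, held by every Trav-Traj combination, so it records how far along both arrays the joins stand. Whether reads, molecules or clonotypes were counted is not given, and the word transcripts below stands for that unit.

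Segment numbers fall from the 5′ end of the Traj array (Traj58) to its 3′ end (Traj2). In the GRCm38 build with GENCODE M21 names, the 43 measured Traj segments span 60.6 kb of chromosome 14, and the Trav segments span positions 52427928 to 53876752 upstream of them. Trav segments were ranked from 1 (Trav1, the most distal) to 81 (Trav21-dv12, the most proximal). The germline sequences of 4 Traj segments are shown because they mark the ends of the pattern: the 5′ end of the array, the segment with the largest rise and both segments with the largest falls. They are exonic J gene segments on the plus strand and come from the C57BL/6J reference, not from the strain 129 locus of these mice. Capitals mark the codons of the Phe-Gly-X-Gly motif, the conserved J signature that ends the CDR3 loop.
Traj58 at chr14:54157280-54157342: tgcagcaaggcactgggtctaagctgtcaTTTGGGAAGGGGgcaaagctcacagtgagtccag
Traj52 at chr14:54165316-54165381: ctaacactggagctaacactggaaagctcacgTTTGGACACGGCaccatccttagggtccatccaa
Traj4 at chr14:54216291-54216353: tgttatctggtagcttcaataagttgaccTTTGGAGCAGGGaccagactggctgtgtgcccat
Traj2 at chr14:54217836-54217901: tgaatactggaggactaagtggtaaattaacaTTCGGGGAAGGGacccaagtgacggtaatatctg

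Every steady-state table listed 83 Trav and 43 Traj segments, and its fractions summed to between 0.997 and 0.998. The 4 tables shared 81 Trav rows, which held at least 97.1% of each total, and each table was rescaled so that these rows sum to 100%. The 3483 pairs of shared rows were compared. The row sets went with the replicate number: both replicate 1 tables listed Trav18 and Trav7-6 but not Trav5-1 or Trav13d-2, and both replicate 2 tables the reverse. For that reason the KO minus WT difference within each replicate number is given beside the pooled value. The depth in reads is unknown; the smallest share above 0 was 0.000336% to 0.000402%. The tables hold no gene other than Tcra segments, so the sorted cell type could not be checked against Cd4, Cd8a or Cd3e, and Rag1 and Rag2 were not measured.

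The KO repertoire sat nearer to the 5′ end of the Traj array and to the proximal end of the Trav array. The usage-weighted mean Traj number was 31.4 and 30.1 in the WT libraries and 36.6 and 35.2 in the KO libraries. The KO libraries were both above the WT libraries, by 5.17 on average (WT SD 0.947, KO SD 1.01, n = 2 each), by 5.21 within replicate 1 and by 5.13 within replicate 2. Counted from Traj58, 50% of the repertoire was reached at Traj32 and Traj31 in WT and already at Traj39 and Traj37 in KO. The usage-weighted mean Trav rank was 43.1 and 41.5 in WT and 47.4 and 45.9 in KO, so the KO transcripts used Trav segments 4.37 ranks closer to the Traj array (4.31 within replicate 1, 4.42 within replicate 2). With 2 libraries against 2, an exact permutation test cannot give a two-sided p below 0.33, so these single values were not tested.

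Usage moved from the 3′ to the 5′ part of the Traj array. The 14 segments of the 3′ window (Traj21 to Traj2) held 30.2% and 33.3% of the WT tables and 17.6% and 20.2% of the KO tables. The 13 segments of the 5′ window (Traj58 to Traj42) held 32.0% and 28.8% in WT and 43.1% and 38.7% in KO. The groups did not overlap in either window. The 16 middle segments (Traj40 to Traj22) held 37.8% and 37.9% in WT and 39.2% and 41.1% in KO, a difference of 2.32 percentage points beside -12.8 points in the 3′ window and 10.5 points in the 5′ window. The plot of Traj usage by library shows the crossing point in the middle of the array.

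**Figure D1:**
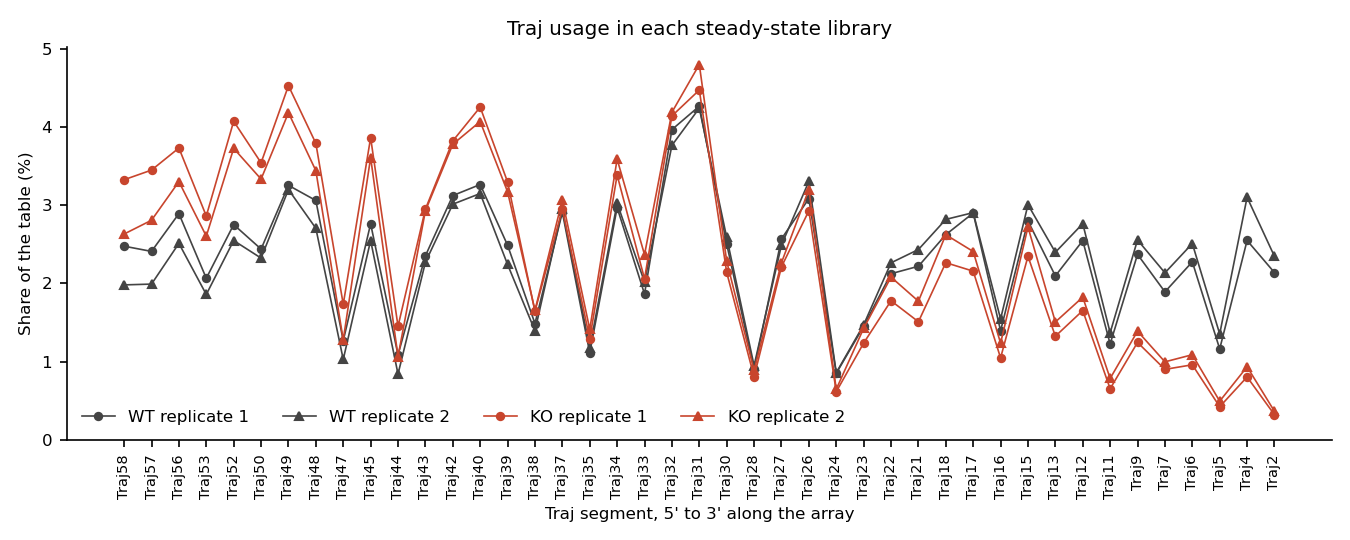
Share of each steady-state table (%, y axis) held by each of the 43 Traj segments, ordered 5′ to 3′, with 1 line per library (WT grey, KO red, circles replicate 1, triangles replicate 2). The KO lines lie above the WT lines from Traj58 to Traj31, apart from Traj44, where the groups overlap, and below them from Traj24 to Traj2.

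In limma on log2(percent + 0.01), with Benjamini-Hochberg adjustment at 0.05, 15 of 43 Traj segments rose in KO (34.9%) and 13 fell (30.2%). All 13 segments of the 5′ window rose, with a median log2 difference of 0.42 beside 0.04 over all 43. Of the 14 segments of the 3′ window 12 fell, with a median of -0.75, and none rose. Of the 16 middle segments 2 rose, Traj40 and Traj39, and 1 fell, Traj24. On a scale centred on the mean log share of each library, which raises the median over all Traj from 0.04 to 0.19, 21 rose and 11 fell.

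The largest falls lay at the 3′ end. Traj2, the last measured segment before Trac, held 2.14% and 2.35% of the WT tables and 0.321% and 0.365% of the KO tables. It was 6.54-fold lower in KO, with a log2 difference of -2.68 (SE 0.119, adjusted p = 4.4e-36 in limma) and within-replicate differences of -2.70 and -2.65. Traj4 held 2.55% and 3.10% in WT and 0.804% and 0.935% in KO, 3.25-fold lower (log2 difference -1.69, limma adjusted p = 7.8e-23). By size of the fall, the next were Traj5 at -1.44, Traj6 at -1.22, Traj7 at -1.08, Traj9 at -0.90, Traj11 at -0.85 and Traj13 at -0.66. Traj12, between Traj11 and Traj13, fell by 0.61, so the order by size is not strictly the order along the array. In each of these 9 segments both KO libraries lay below both WT libraries, as they did in 20 of all 43 Traj segments, called or not. As a group, the 7 most 3′ segments (Traj11 to Traj2) took 13.6% and 15.4% of WT and 5.31% and 6.06% of KO tables, and all 7 fell.

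The rises at the 5′ end were smaller and more even. Traj52, in the window of the Traj49 promoter, held 2.75% and 2.55% in WT and 4.08% and 3.73% in KO, with a log2 difference of 0.56 (limma adjusted p = 5.0e-05). Traj50 followed at 0.53, Traj57 at 0.50, Traj45 at 0.49, Traj53 at 0.48, Traj39 at 0.45, Traj49 at 0.43 and Traj58 at 0.42. Both KO libraries were above both WT libraries in all 8, as they were in 21 of all 43 Traj segments, called or not. The 4 segments next to the TEA promoter (Traj58 to Traj53) held 9.85% and 8.35% in WT and 13.4% and 11.4% in KO, and the 6 of the Traj49 promoter window (Traj52 to Traj45) 15.5% and 14.4% in WT and 21.5% and 19.6% in KO. All 10 rose, as did the 5 from Traj44 to Traj39; Traj44 was the one riser whose libraries overlapped, at 1.09% and 0.841% in WT against 1.45% and 1.07% in KO.

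Between these ends the difference passed through 0. The 7 segments from Traj38 to Traj31 were all higher in both KO libraries and none was called, with log2 differences of 0.04 to 0.24; they include Traj33, joined in MAIT cells, at 0.19 (limma adjusted p = 0.15). Of the 7 segments from Traj30 to Traj22, 1 fell. The slope was uneven from segment to segment. Traj24 (-0.43) and Traj21 (-0.50) fell, while Traj18, the segment of the invariant NKT chain, and Traj15 lie further 3′ and had log2 differences of -0.16 and -0.20 that were not called. Over the 43 segments the log2 difference ran with distance from Traj58 at a Spearman rho of -0.96, a description across segments that share the same libraries.

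Traj shares varied together along the array, so the calls are not independent, and limma used 1 spread for all 43 segments. The very small p-values of single Traj come from that pooling as if the segments were independent. They do not measure the scatter of the segment itself between libraries. The count of 28 calls fell to 16 without WT replicate 2 and to 11 in a fit on all 12 libraries.

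**Figure D2:**
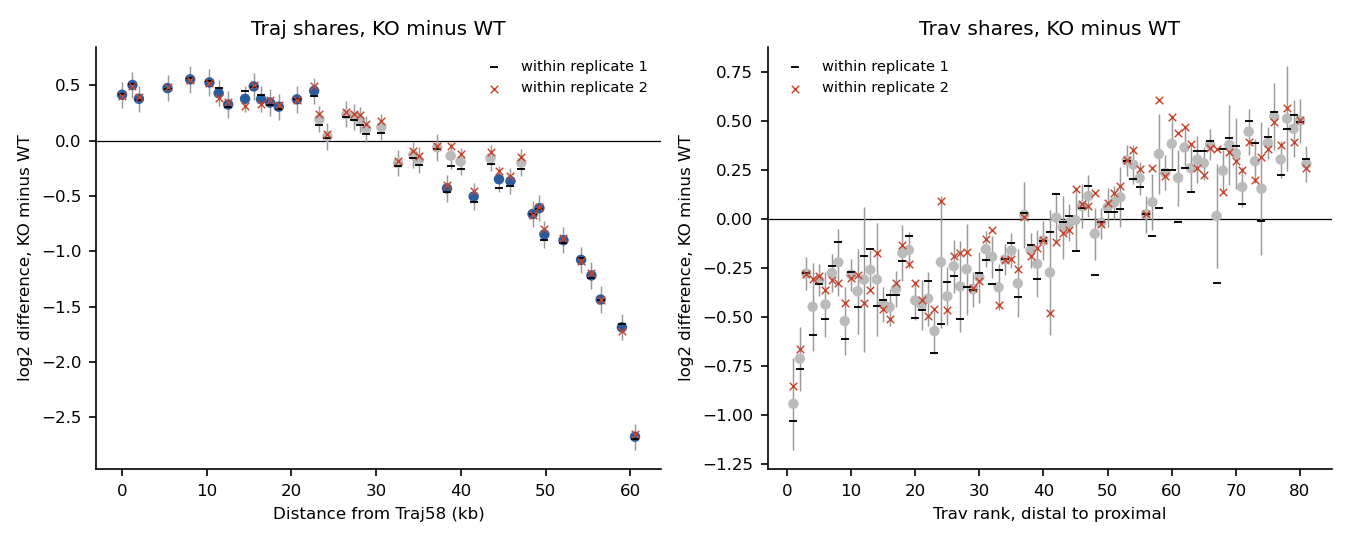
Log2 difference of the share, KO minus WT (y axis), for each Traj segment by distance from Traj58 in kb (left) and each Trav segment by rank from distal to proximal (right). Large points are the pooled difference with its limma SE, blue where called, and dashes and crosses are the differences within replicate 1 and replicate 2; the left panel falls from 0.42 at Traj58 to -2.68 at Traj2, and the right panel rises from -0.94 at Trav1 to 0.28 at Trav21-dv12.

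Along the Trav array the order was mirrored. Trav1, the most distal segment, held 1.76% and 2.23% of the WT tables and 0.853% and 1.23% of the KO tables. Trav2, its neighbour, held 1.30% and 1.53% in WT and 0.762% and 0.963% in KO. Both KO libraries were below both WT libraries in both segments, with log2 differences of -0.94 (SE 0.236) and -0.71 (SE 0.164). At the proximal end, Trav20 held 0.213% and 0.188% in WT and 0.304% and 0.272% in KO, a log2 difference of 0.50. By zone, the 27 distal segments held 28.5% and 30.4% in WT and 21.7% and 23.3% in KO, and the 27 proximal segments 37.5% and 33.3% in WT and 45.1% and 41.4% in KO. The 27 central segments, at 34.0% and 36.3% in WT and 33.3% and 35.4% in KO, overlapped.

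None of the 81 Trav segments was called (0%), although 29 had an unadjusted limma p under 0.05. The smallest adjusted p was 0.106, shared by Trav1, Trav2 and the other segments named here. The groups did not overlap in 55 segments: both KO libraries were above both WT libraries in 25 (30.9%) and below them in 30 (37%). All 25 lay in the proximal (22) or central (3) zone, and all 30 in the distal (20) or central (10) zone. The median log2 difference was -0.36 over the distal zone, -0.07 over the central and 0.30 over the proximal zone, beside -0.07 over all 81. With the replicate number, which the row sets follow, as a term in the fit, limma called 12 Trav higher and 15 lower. Spearman's rho of the log2 difference with Trav rank was 0.91 over the 81 segments, again as a description.

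By the smallest p, the segments lower in KO were Trav15d-1-dv6d-1 (0.787% and 0.661% in WT, 0.486% and 0.478% in KO), Trav6d-5, Trav10d, Trav2 and Trav12d-1. Those higher in KO were Trav14-3 (1.76% and 1.80% in WT, 2.37% and 2.32% in KO), Trav3-3, Trav20, Trav8-2 and Trav7-5. None of these 10 passed the adjusted threshold without the replicate term (limma adjusted p = 0.106 for each); with it 9 did, at 0.046, and Trav12d-1 did not, at 0.051. In Trav3-3 both WT libraries lay at 2.38% and 2.44% and both KO libraries at 3.14% and 3.14%, with differences of 0.40 and 0.36 within the replicate numbers.

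Copies of one family differed by where they lie. In the mouse locus a block of Trav genes is duplicated, and within it the copies with the suffix d lie further from the Traj array. Trav3-1, Trav6-1, Trav7-1 and Trav6-2 carry no suffix d but lie further out still, at ranks 3 to 6. These 4 are counted with the other copies below, although in each both KO libraries lay below both WT libraries (log2 differences -0.45 to -0.28). The shared rows hold 14 families with both kinds of copy. In all 14 the suffix d copies had the lower mean in KO and the other copies the higher mean. Trav5-1, without suffix d, stands outside these rows and is not counted. Of the whole replicate 2 tables it held 2.10% in WT and 1.51% in KO. The counted copy, Trav5-4, held 1.09% in WT and 1.38% in KO of the shared rows there. In replicate 2 the rise of the Trav5 copies without suffix d therefore holds only without Trav5-1. Libraries did not overlap for the suffix d copies of 12 of these families, lower in KO, and for the other copies of 10, higher in KO. Over all 81 single Trav segments, both KO libraries were below both WT libraries in 30 (37%) and above them in 25 (30.9%). In the Trav12 family, the suffix d copies held 3.98% and 4.05% in WT and 3.09% and 3.46% in KO, and the other copies 4.30% and 3.81% in WT and 5.12% and 5.31% in KO. Summed over both kinds, the Trav12 family held 8.07% in WT and 8.49% in KO on average. None of the 20 families was called (smallest limma adjusted p = 0.0918). Near-identical copies can share reads, and the sources used here do not say how the authors divided such reads.

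The pair tables show both shifts at once. Of 3483 pairs, 107 rose (3.07%) and 356 fell (10.2%) in limma with a spread that follows the share. On the centred scale 306 rose and 390 fell. The falls were concentrated in 3′ Traj columns: 76 of 81 pairs with Traj2 fell, 52 with Traj4, 37 with Traj5, 39 with Traj6 and 35 each with Traj7 and Traj9. The 7 most 3′ segments held 294 of the 356 falls. The rises lay in the 5′ columns and in the middle columns as far as Traj31, with 16 pairs of Traj52, 15 each of Traj50 and Traj45 and 11 of Traj39. No pair of a segment from Traj58 to Traj31 fell and none from Traj30 to Traj2 rose.

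Falls were most frequent where both segments lay far from each other on the chromosome. Of the 378 pairs joining a distal Trav to a 3′ window Traj, 201 fell, of the 378 with a central Trav 120, and of the 378 with a proximal Trav 28. Distal Trav with 3′ Traj together held 12.2% and 14.3% of the WT tables and 5.38% and 6.50% of the KO tables, 2.23-fold less. The opposite corner, proximal Trav with 5′ Traj, held 18.1% and 15.96% in WT and 25.0% and 21.7% in KO, with 44 of 351 pairs up and none down. The off-diagonal corners differed less. Proximal Trav with 3′ Traj held 5.97% and 5.02% in WT and 4.65% and 4.68% in KO, and distal Trav with 5′ Traj held 5.85% and 5.30% in WT and 7.27% and 6.67% in KO.

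**Figure D3:**
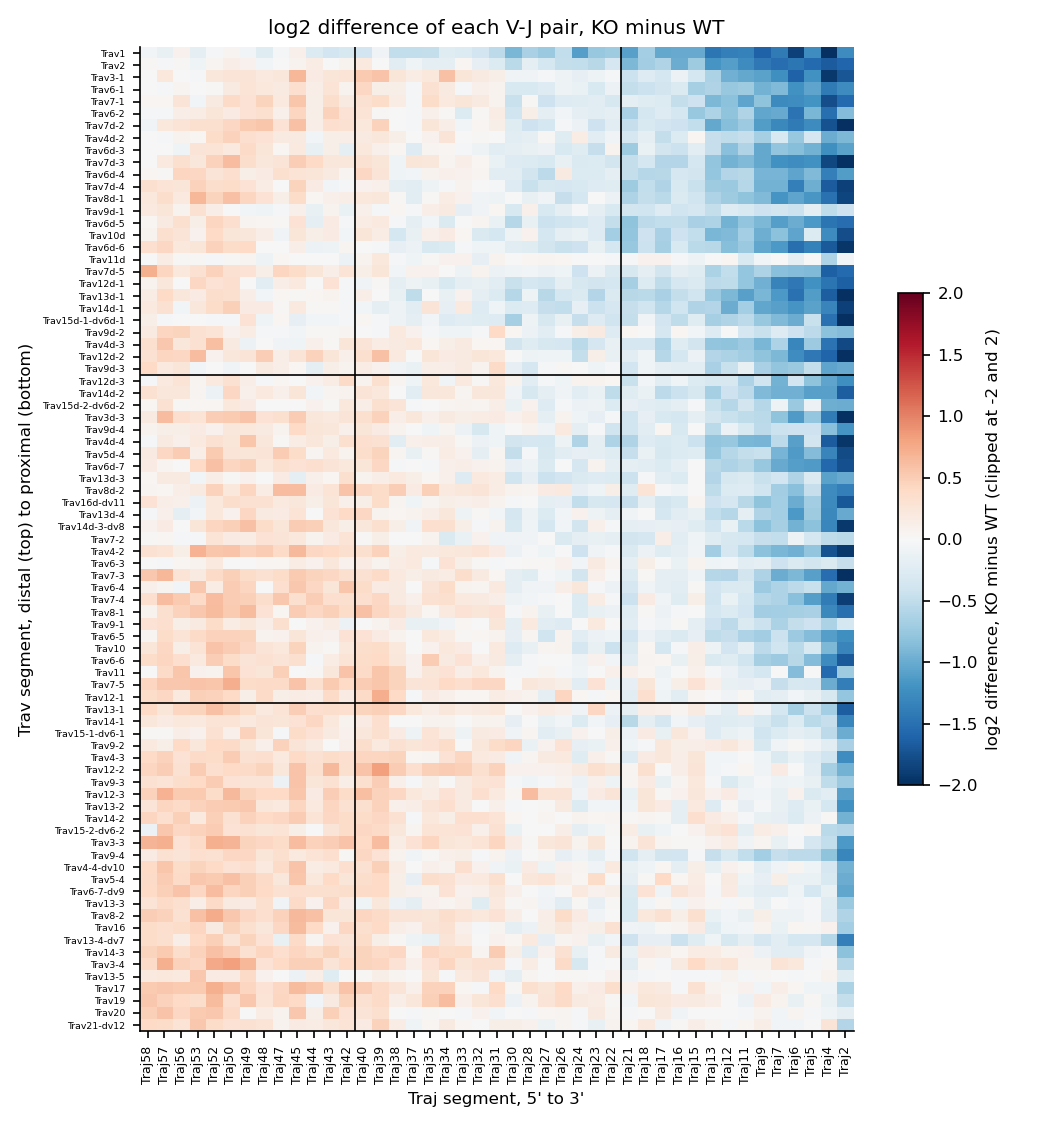
Log2 difference of each of the 3483 pairs, KO minus WT, with Traj segments from 5′ to 3′ on the x axis and Trav segments from distal (top) to proximal (bottom) on the y axis; black lines divide windows and zones, and colours are clipped at -2 and 2. The darkest blue (lower in KO) fills the upper right corner of distal Trav with Traj4 and Traj2, and red (higher in KO) the left side.

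Among pairs with at least 0.02% in the higher group, the largest falls joined Traj2 to distal or central Trav. Trav13d-1 with Traj2 held 0.0746% and 0.0981% in WT and 0.00571% and 0.0110% in KO (log2 difference -2.40, limma adjusted p = 0.0026). Trav7d-3 with Traj2 held 0.0549% and 0.0609% in WT and 0.00250% and 0.00378% in KO, 18.4-fold lower. The next were Traj2 with Trav12d-2, Trav7-3, Trav15d-1-dv6d-1, Trav7d-2, Trav3d-3, Trav6d-6 and Trav4d-4, at -2.19 to -1.94. The one pair of the 10 without Traj2 was Trav1 with Traj4, 0.0385% and 0.0472% in WT and 0.00179% and 0.00378% in KO. These KO levels are near the pseudocount of 0.01%, so the log2 values understate the folds.

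On the log2(percent + 0.01) scale the largest rises were all under 1 log2 unit. Trav12-2 with Traj39 held 0.0608% and 0.0356% in WT and 0.0916% and 0.0896% in KO (0.82, limma adjusted p = 0.043). Trav3-4 with Traj50 held 0.0408% and 0.0311% in WT and 0.0799% and 0.0622% in KO (0.82, adjusted p = 0.023 in limma). The others were Trav3-4, Trav8-2 and Trav3-3 with Traj52, Trav7-5 with Traj50, Trav12-1 with Traj39, Trav7d-5 with Traj58, and Trav3-3 and Trav12-3 with Traj57, at 0.70 to 0.76. Of these, Trav12-1 with Traj39 lay near the pseudocount, at 0.00786% and 0.00911% in WT and 0.0196% and 0.0213% in KO, 2.41-fold higher. The 3 most used pairs were the same in both genotypes, the most proximal Trav21-dv12 with Traj58, Traj57 and Traj56. Trav21-dv12 with Traj58 held 0.269% and 0.253% in WT and 0.368% and 0.326% in KO, a log2 difference of 0.40 that was not called (limma adjusted p = 0.068). The number of pair calls rests on the libraries: it was 0 without WT replicate 2, 159 without WT replicate 1, 228 without KO replicate 1 and 20 in the fit on all 12 libraries. With the replicate term it was 1050.

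The move along one array was seen within single segments of the other. For 65 of 79 Trav segments (82.3%) the mean Traj number of their own transcripts rose in KO in limma, and for none did it fall. In the fit on all 12 libraries 37 calls were made. All 26 distal and all 26 central segments rose, by a median of 7.09 and 4.96 Traj numbers, and 13 of 27 proximal segments rose, with a zone median of 2.11. In Trav10d the mean Traj number was 27.4 and 26.5 in WT and 36.7 and 34.6 in KO, a difference of 8.71 (SE 1.02, limma adjusted p = 3.7e-06). Trav8d-1 differed by 8.31, Trav6d-4 by 7.97 and Trav6d-5 by 7.97. The smallest differences were those of Trav19 (47.2 and 46.9 in WT, 47.9 and 47.3 in KO), Trav21-dv12, Trav3-4 and Trav17, at 0.50 to 1.40, and were not called. In Trav1, the most distal segment, the mean Traj number was 23.8 and 23.5 in WT and 27.6 and 27.0 in KO, a rise of 3.63 (limma adjusted p = 0.0020).

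The mirror measure gave the same order. The mean Trav rank of the transcripts of a Traj rose in KO for 23 of 43 Traj segments (53.5%) in limma and fell for none. All 14 segments of the 3′ window rose, by a median of 5.32 ranks, and 9 of 16 middle segments rose. None of the 13 segments of the 5′ window was called, and their median was 0.54. In Traj4 the mean Trav rank was 34.4 and 32.5 in WT and 43.4 and 42.0 in KO, a difference of 9.23 (SE 0.892, limma adjusted p = 0.0039). In Traj2 it was 38.0 and 35.7 in WT and 46.1 and 44.7 in KO. In Traj50 it was 53.0 and 53.5 in WT and 53.3 and 52.9 in KO, overlapping. Transcripts with a 3′ window Traj carried more proximal Trav segments in KO than in WT. Without WT replicate 2, 7 of these 23 calls were made, without KO replicate 1, 13, and in the fit on all 12 libraries 1.

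**Figure D4:**
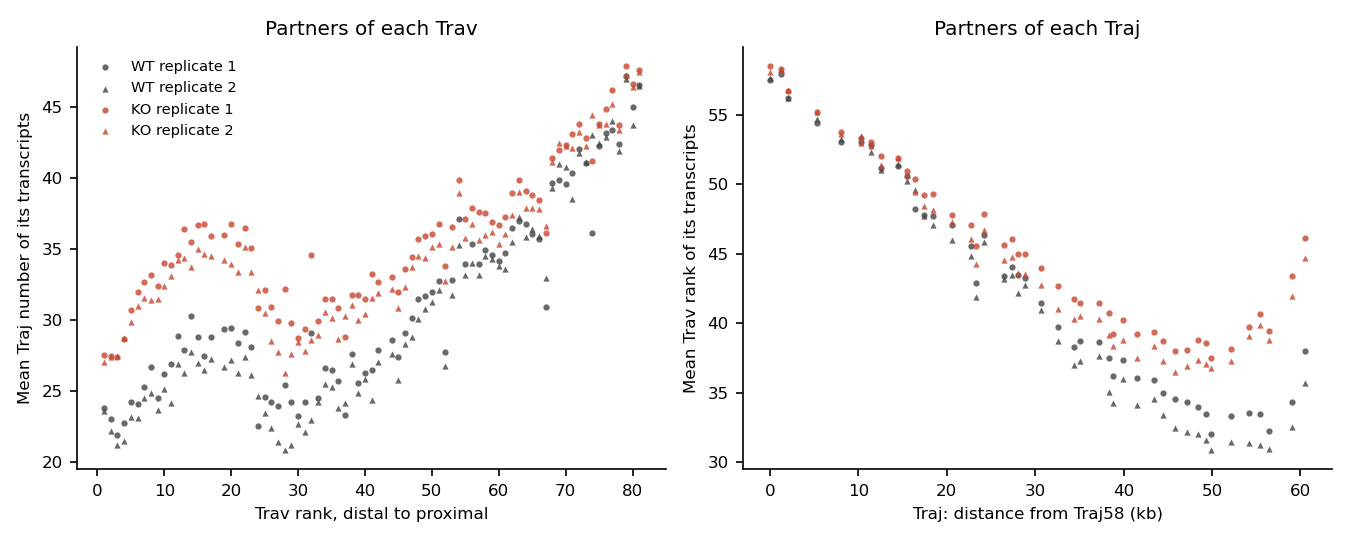
Left, mean Traj number of the transcripts of each Trav segment (y axis) by Trav rank; right, mean Trav rank of the transcripts of each Traj segment (y axis) by distance from Traj58 in kb; 1 point per library (WT grey, KO red, circles replicate 1, triangles replicate 2). The genotypes are far apart for distal Trav and 3′ Traj segments (8.71 Traj numbers in Trav10d, 9.23 ranks in Traj4) and close for Trav19 and Traj50.

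Within zones, KO minus WT was compared between distal and proximal Trav, a test chosen after these values had been seen. Among transcripts with a distal Trav, the 3′ window held 42.7% and 47.1% in WT and 24.8% and 27.9% in KO, and among those with a proximal Trav 15.9% and 15.1% in WT and 10.3% and 11.3% in KO. In limma on the difference between zones, KO minus WT was higher among distal than proximal transcripts for 21 of 43 Traj segments (48.8%) and lower for 7 (16.3%). The 21 were the 13 of the 5′ window and 8 middle segments, and the 7 were Traj11 to Traj2. Traj shares add up to the whole within each zone, so a larger 3′ loss forces a larger total gain elsewhere in that zone. Over all 43 segments the median difference between zones was 0.255. No centred scale was applied here, so how many of the 21 calls reflect only the larger distal 3′ loss was not tested. Traj4 differed by -1.93 on the log2 scale within distal and by -0.88 within proximal transcripts (difference -1.04, SE 0.114, limma adjusted p = 0.0012). Traj2 differed by -2.98 within distal and -2.18 within proximal transcripts. Traj50 differed by 0.88 within distal and 0.22 within proximal transcripts. Without KO replicate 1 there were 8 calls, and in the fit on all 12 libraries 1.

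**Figure D5:**
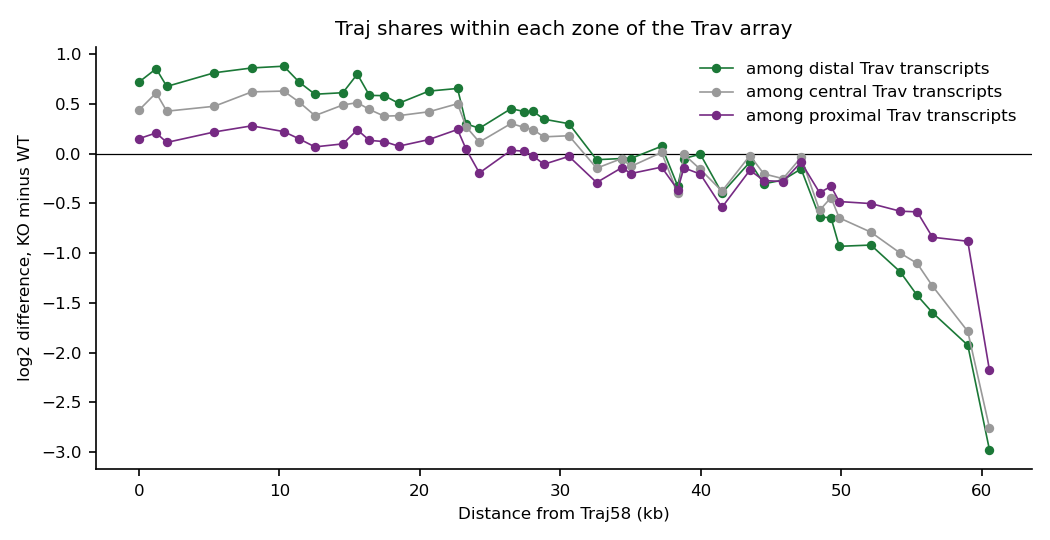
Log2 difference, KO minus WT (y axis), of each Traj share among the transcripts of distal (green), central (grey) and proximal (purple) Trav segments, by distance from Traj58 in kb. The green line lies above the purple line at the 5′ end (0.88 against 0.22 at Traj50) and below it at the 3′ end (-1.93 against -0.88 at Traj4).

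Pairing beyond what the 2 single segments account for was tested as the log2 ratio of a pair's share to the product of its Trav and Traj shares. This association rose in 46 pairs (1.32%) and fell in 28 (0.804%) in limma. Of the 46 rises 41 joined a proximal Trav to a 3′ window Traj, and of the 28 falls 18 joined a distal Trav to a 3′ window Traj. Trav14-1 with Traj4 held 0.0330% and 0.0393% in WT and 0.0250% and 0.0219% in KO, a smaller log2 difference than that of Traj4 as a whole, and its association rose by 0.93 (limma adjusted p = 0.0046). Trav12-3 and Trav4-3 with Traj4 and Trav14-1 with Traj6 rose by 0.73 to 0.83. Trav15d-1-dv6d-1 with Traj2 held 0.0479% and 0.0447% in WT and 0.00250% and 0.00275% in KO, and its association fell by 0.99 (limma adjusted p = 0.00063). Trav11 with Traj4, Trav6-2 with Traj6 and Trav7d-3 with Traj2 fell by 0.67 to 0.82. The number of these calls depends on the pseudocount and the libraries, with 0 at a pseudocount of 0.001% and 0 without WT replicate 2, where 575 and 535 pairs had an unadjusted p under 0.05. It was 21 without WT replicate 1, 25 without KO replicate 1, 43 without KO replicate 2 and 378 with the replicate term.

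The KO tables were also less even. The effective number of pairs, the exponential of the Shannon entropy, was 2348 and 2288 in WT and 2072 and 2140 in KO. The KO libraries were both below the WT libraries, with a KO minus WT difference of -211.8 on average, -276.0 within replicate 1 and -147.7 within replicate 2. The effective number of Traj segments was 40.5 in both WT libraries and 36.9 and 37.7 in KO, and that of Trav segments 65.5 and 64.8 in WT and 62.3 and 63.5 in KO. The 100 most used pairs held 11.6% and 12.2% in WT and 14.5% and 14.1% in KO. The mutual information between Trav and Traj was 0.176 and 0.198 bits in WT and 0.150 and 0.161 bits in KO. Over the shared rows 54 and 55 pairs stood at 0 in WT and 57 and 54 in KO, so the number of pairs seen overlapped. None of these single values was tested.

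Segments and pairs that mark other T cells were compared in the same way. Invariant NKT, MAIT and gamma-delta T cells carry CD3 on the surface, so the CD3e-negative gate should remove them. Trav11 with Traj18, the chain of invariant NKT cells, held 0.0350% and 0.0476% in WT and 0.0378% and 0.0467% in KO. Its duplicate Trav11d with Traj18 held 0.00432% and 0.00372% in WT and 0.00499% and 0.00480% in KO. Trav1 with Traj33, the chain of MAIT cells, held 0.0412% and 0.0518% in WT and 0.0299% and 0.0439% in KO. The 10 segments with a dv name, which can also join in the Tcrd locus of gamma-delta T cells, held 12.3% and 11.4% in WT and 13.3% and 12.1% in KO. Except for Trav11d with Traj18, where both KO values were higher, the groups overlapped, and no marker pair was called.

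The steady-state difference was set against those in the labelled cells in 1 fit of all 12 libraries, over 79 shared Trav rows. Mean Traj numbers at 24 h were 41.8 and 43.0 in WT and 45.7 and 47.1 in KO, and at 48 h 32.0 and 33.7 in WT and 38.6 and 38.5 in KO. KO minus WT differed from that at 24 h for 14 of 43 Traj segments (32.6%) in limma and from that at 48 h for none (0%), with 7 at an unadjusted p under 0.05. In this fit the log2 difference of Traj2 was -2.67 at steady state, -1.77 for the 24 h cells and -2.59 for the 48 h cells. Segments of the middle of the array, such as Traj31 (0.12 at steady state, -0.75 in the 24 h cells, 0.09 in the 48 h cells), made up most of the other calls. In replicate 2 of each labelled group the deposited fractions summed to 1.97 to 1.99, and 43.5% to 56.7% of their pairs stood at 0. On the centred scale there were 0 calls against 24 h, with 11 Traj at an unadjusted p under 0.05, and 5 were left without steady-state KO replicate 1. There were 0 calls without any of the other 3 steady-state libraries, without WT replicate 1 at 24 h or without KO replicate 2 at 24 h.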

How the data were processed

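Per the labels' protocols, total RNA of sorted DP thymocytes was amplified by template-switch RACE with a Trac primer and sequenced. The authors deposited 1 table per library, with Trav in rows and Traj in columns, whose values are the fraction of the repertoire held by each pair, as the segment headers and steady-state totals near 1 show. Aligner, build and annotation were not given in the sources used here, nor was whether reads, molecules or clonotypes were counted, so no counts or intervals were derived. Rows without a name (12 in all) were ignored. Each table was divided by its total over the 81 shared Trav rows.

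limma 3.58.1 in R 4.3.3 was fitted to log2(percent + 0.01) of the 4 libraries, 1 mean per group, with empirical Bayes moderation (a trend for pairs and associations) and Benjamini-Hochberg adjustment over all features at 0.05. Fold changes on this scale understate the change of low shares. Conditional means used segments with a mean share of at least 0.1%. Testing on simulated data with 2-fold changes recovered 100% of changed Traj, 62.5% of Trav and 69.0% of pairs. At a log2 change of 0.5 it recovered 37.5% of Traj and 31.2% of Trav. The simulated noise was drawn for each feature separately. It lacks the shared movement of segments along the arrays, so these rates do not give the error in the real tables. Positions came from GENCODE M21 on GRCm38 (RefSeq for Trav13-5); 80 of 81 Trav had one.

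Members, windows, zones and marker pairs were chosen with earlier results of these data known. Named Traj are the 8 called with the largest rise and the 8 with the largest fall plus Traj58, Traj57, Traj2, Traj49, Traj18 and Traj33. Named Trav are the 5 of each direction with the smallest p, since none was called. Named pairs are the 10 largest called rises and falls at a mean of at least 0.02% in the higher group without overlap, and the 3 most used. Named associations are up to 4 each way at that level, and named conditional means the 4 largest and 4 smallest differences. Other segments were named after their values were seen. Alternatives covered the pseudocount, scale, filter, trend, replicate block, fit on 12 libraries and leaving out each library.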

Additional observations from a re-analysis of the deposited data

Results flagged for a closer look

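The Trav18 and Trav7-6 rows, which stand outside the shared set and, at steady state, are listed only in the replicate 1 tables, were higher in the KO than in the WT table: Trav18 at 0.0253% against 0.0204%, and Trav7-6 at 0.0413% against 0.0224%. Trav5-1 and Trav13d-2, at steady state listed only in the replicate 2 tables, held more and were lower in KO. Trav5-1 stood at 1.51% in KO against 2.10% in WT, and Trav13d-2 at 0.604% against 0.782%. With 1 table per genotype none of these rows has a replicate check.

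For 14 Traj segments the KO minus WT difference at steady state differed from that 24 h after tamoxifen (limma interaction term, adjusted p under 0.05). On the centred scale there were 0 such calls, and the calls also depended on single steady-state libraries. The steady-state difference was above that at 24 h by 0.70 for Traj43, 0.54 for Traj42, 0.63 for Traj40, 0.82 for Traj39, 0.70 for Traj37, 0.76 for Traj35, 0.68 for Traj34, 0.82 for Traj33, 0.76 for Traj32, 0.87 for Traj31, 1.18 for Traj30, 1.06 for Traj27 and 0.74 for Traj22, all on the log2 scale. For Traj2 it was lower, at -0.90. The 24 h replicate 2 tables had 43.5% and 56.7% of pairs at 0, and there were 15 calls without that of WT and 0 without that of KO. There were also 0 without WT replicate 1 at 24 h.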

How the results depend on the processing

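Paired analysis: replicate 1 minus replicate 2 correlated between WT and KO at 0.94 over Traj, 0.72 over Trav and 0.48 over pairs of at least 0.01%. With only 2 numbers this does not establish pairing. With the replicate number as a block, calls were 41 for Traj, 27 for Trav (15 lower and 12 higher), 1050 for pairs, 378 for associations, 78 for Traj number per Trav and 33 for Trav rank per Traj; within each sampling it gave 26 against 24 h and 6 against 48 h. The fit on all 12 libraries gave 11 Traj, 20 pair, 0 association, 37 Traj number, 1 Trav rank and 1 distal-against-proximal calls. The centred scale gave 696 pair calls and 0 against 24 h. Association calls were 0 at a pseudocount of 0.001% and 183 at 0.1%. At a mean share of 1%, 40 Traj number calls were made, of fewer segments tested. The cause of these changes was not tested. Leaving out 1 library at a time gave 16 to 30 calls for Traj, 0 for Trav, 0 to 430 for pairs, 0 to 43 for associations, 48 to 58 for Traj number per Trav, 7 to 23 for Trav rank per Traj, 8 to 35 for distal against proximal and 0 to 21 against 24 h. It moved the KO minus WT difference between 4.46 and 5.88 for the mean Traj number, 3.56 and 5.17 for the mean Trav rank and -245.8 and -177.9 for the effective number of pairs. Among the named segments and pairs, 2 uncalled pair differences changed sign: Trav12-3 with Traj4 (-0.21, and 0.07 without KO replicate 1) and Trav11 with Traj18 (0.03, and -0.14 without WT replicate 1 and -0.09 without KO replicate 2). Differences in kb carry the opposite sign by construction. Depth in reads is unknown. The lowest shares move in steps of 0.000336% to 0.000402% in the steady-state tables, and no other detection limit was derived.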
